A study of Mus musculus with 2 samples.

Results

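Mir328, Mir101a, Mir101b, Mir186, Mir339 and Mir384 are miRNA genes whose products are reported regulators of App or Bace1. They were chosen by name for that reason, and they are 6 of the 2202 miRNA genes annotated in GENCODE release M21 on the mouse genome build mm10. Total RNA of left cerebral cortex from adult 5xFAD/CAST females, aged 8 to 10 months, was used for microRNA sequencing of fragments under 30 nt. The 2 libraries form 1 group and carry biological replicate numbers 1 and 2. Both name the same donor entry but different biosamples, and whether the tissue came from separate animals is not stated. Differences between them may be technical or biological. In 5xFAD mice, mutant human APP is expressed from the Thy1 promoter, which is active in neurons, and amyloid plaques form in the brain. Every library carries the 5xFAD label, and the study as analysed here holds no control without it.

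App encodes the amyloid precursor protein. Bace1 encodes the β-secretase, which makes the first cut in the release of amyloid-β from that protein. A mature miRNA guides Argonaute proteins to messenger RNAs, mostly through pairing of its seed (bases 2 to 8 from the 5′ end) with a site in the 3′ UTR, and lowers their translation or stability. miR-328 has been reported to act on Bace1 in mouse brain, and miR-101 on App in rat neurons and human cells. miR-186 has been reported to act on Bace1 in mouse neuronal cells, miR-339-5p on BACE1 in human cells, and miR-384 on both transcripts.

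Mature sequences were found in RefSeq (GRCm38.p6) for 5 of the 6 genes, Mir328 being the gene without a match, and they numbered 10 arms with 10 distinct seeds. The arms below are those that carry a seed match in App or Bace1 or that share a seed with another gene, and the seed is in capitals.
miR-101a-3p: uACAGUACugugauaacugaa
miR-101b-3p: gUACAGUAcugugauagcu
miR-186-5p: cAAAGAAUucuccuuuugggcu
miR-339-5p: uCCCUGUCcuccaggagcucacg
miR-384-5p: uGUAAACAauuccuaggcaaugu
miR-30a-5p: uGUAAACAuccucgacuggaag
The 3p arms of the miR-101 genes were identical at 17 of 18 aligned bases and differed by A16G, counted from the 5′ end of miR-101a-3p. The annotated miR-101b-3p starts 1 base earlier, so the annotated seeds are shifted against each other. In the RefSeq table, miR-384-5p has the seed of miR-30a-5p, miR-30c-5p and miR-30e-5p, and the other 9 arms share theirs with no other mature miRNA of that table. The table lacks some mature miRNAs, as it does for Mir328, so these lists of shared seeds may be incomplete.

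The reverse complement of each seed was searched on the transcript strand of the 3′ UTRs of App-201 (888 bases) and Bace1-201 (4104 bases), 1 principal transcript per gene. Of 20 pairs of an arm and a 3′ UTR, 5 had at least 1 match, with 5 matches in App and 3 in Bace1. Matches of the miR-101 arms in App and of miR-186-5p and miR-339-5p in Bace1 are shown, since these are the transcripts the genes are reported to act on. Capitals mark the match, the letters are those of the mm10 reference and not of the CAST strain, and positions count from the base after the stop codon.
miR-101a-3p in App, chr16:84955069-84955090, minus strand: ttcatgggttttgtGTACTGTa
miR-101b-3p in App, chr16:84955068-84955089, minus strand: tcatgggttttgtgTACTGTAa
miR-101b-3p in App, chr16:84954779-84954800, minus strand: ccatgactgcatctTACTGTAc
miR-186-5p in Bace1, chr9:45860611-45860632, plus strand: ctccaacctaaagtATTCTTTa
miR-186-5p in Bace1, chr9:45863136-45863157, plus strand: taactaaacacaacATTCTTTa
miR-339-5p in Bace1, chr9:45863914-45863935, plus strand: tccactgtattctaGACAGGGa
The miR-101a-3p match at base 255 and the first miR-101b-3p match at base 256 of the App 3′ UTR share 6 bases and are one site read with both seeds. miR-101b-3p had a further match at base 545.

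These motifs are common in sequence of this length. GTACTGT (miR-101a-3p) lay in the first 888 bases of 5.84% of the 10094 principal 3′ UTRs at least that long, and TACTGTA (miR-101b-3p) in 7.79%. ATTCTTT (miR-186-5p) matched App at bases 460 and 522, where 13.5% of such windows hold it, and Bace1 at bases 330 and 2855. Among 1155 3′ UTRs of at least 4104 bases, 53.8% held ATTCTTT and 31.2% held GACAGGG (miR-339-5p), which matched Bace1 at base 3633. CTAGGAA and TGTTTAC, for the arms of miR-384, had no match in either 3′ UTR. With the complement of bases 2 to 7, 10 of the 20 pairs had a match, among them miR-384-3p in both transcripts. Its shorter motif, TAGGAA, lay in the first 888 bases of 25.1% of the 10094 3′ UTRs. It lay in the first 4104 bases of 78.6% of the 1155. A match describes the letters only, and the human APP transgene was not searched.

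**Figure D1:**
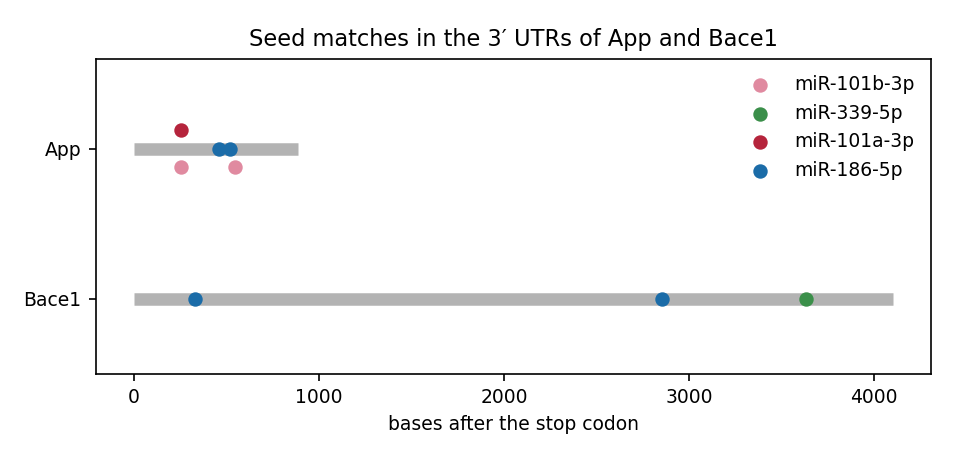
Positions of seed matches (points) in the 3′ UTRs of App and Bace1 (grey bars), in bases after the stop codon. The App 3′ UTR of 888 bases holds 5 matches, of which the leftmost red and pink points are one shared site, and the Bace1 3′ UTR of 4104 bases holds 3.

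All 6 genes were detected, with 10 CPM or more (counts scaled to a common total of miRNA-gene counts) in both libraries, as were 309 of the 2202 genes. Together they took 1.63% of the counts in replicate 1 (68752 counts, exact Clopper-Pearson 95% interval 1.61 to 1.64) and 1.39% in replicate 2 (71968 counts, 1.38 to 1.40), a mean of 1.51% ± 0.165 (SD, n = 2). Mir328 alone made up 91.3% of these counts in replicate 1 and 92.1% in replicate 2. The other 5 genes took 0.141% and 0.110% of all miRNA-gene counts. Intervals cover counting error only, and SDs of 2 values are imprecise. Small-RNA reads come from the mature arms, so CPM were not scaled by hairpin length (71 to 97 bases), and the 5p and 3p arms of a hairpin are summed in each count.

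Mir328 (ENSMUSG00000070130.1; mm10 chromosome 8, 105308364 to 105308460, minus strand) stood at 14856 CPM in replicate 1 and 12843 CPM in replicate 2, or 13850 ± 1424 (SD, n = 2). By counts assigned to a gene, it ranked 11 and 16 among all miRNA genes in those libraries, and 13 by its mean. The mean of Mir328 was 55.5 times the median of the detected genes (249.5 CPM) and 35.1 times that of Mir101b, the next of the 6. Reads mapping to several places, 40.4% and 39.4% of the reads of replicates 1 and 2, are outside these counts. Genes that share sequence with other loci, such as the Mir124a and Mir9 genes, may therefore stand too low. Their effect on the rank of Mir328 was not tested. The hairpin lies in an intron of Elmo3 on the opposite strand. In 3 of the 5 Elmo3 transcripts it reaches into an exon, by at most 12 bases. No read was counted on the opposite strand of Mir328.

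**Figure D2:**
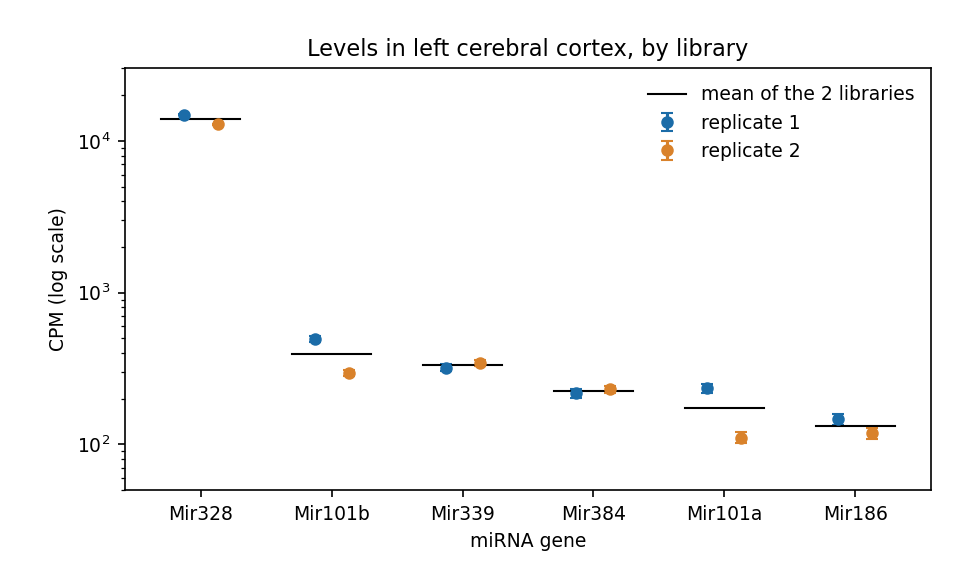
CPM (log axis) of the 6 genes in replicate 1 (blue) and replicate 2 (orange), with exact 95% intervals for counting error, and the mean as a line. Mir328 lies at 12843 CPM or more in both libraries and the other 5 genes between 111 and 493 CPM.

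Mir101b and Mir101a encode the near-identical miR-101 products reported to act on App. Mir101b (ENSMUSG00000065556.1; chromosome 19, 29135279 to 29135375, plus strand, in an intron of Rcl1) had 493 and 296 CPM in replicates 1 and 2, or 394 ± 140 (SD, n = 2). Mir101a (ENSMUSG00000065451.1; chromosome 4, 101346945 to 101347027, minus strand, within an exon of 1 of the 2 transcripts of the lincRNA E130102H24Rik) had 234 and 111 CPM, or 173 ± 87.2 (SD, n = 2). Both were higher in replicate 1, and in each library Mir101b was above Mir101a. Mir101a made up 32.2% of the 3074 counts of the pair in replicate 1 (exact Clopper-Pearson 95% interval 30.6 to 33.9) and 27.3% of 2099 in replicate 2 (25.4 to 29.3).

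The Mir101a and Mir101b hairpins share a run of 20 bases that reaches beyond the mature arms, and none of the stretches of 18 bases within either miR-101a arm lies in the Mir101b hairpin. Mir101c, annotated on chromosome 9, holds 19 bases of the 21 of miR-101a-3p and 2 of its 4 stretches of 18 bases, so the counts of Mir101a are uncertain. Mir101c had 0 counts in both libraries. Reads mapping to several places, 40.4% and 39.4% of the reads of replicates 1 and 2, are outside the gene counts. Reads of miR-101a-3p short enough to lie within the stretch shared with Mir101c could be among them, and how many was not tested. The hairpins of Mir328, Mir339, Mir384 and Mir186 share no stretch of 18 bases with another annotated miRNA hairpin.

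Mir339 and Mir186 are reported for Bace1 and lie within introns of protein-coding genes on the same strand. Mir339 (ENSMUSG00000065593.1; chromosome 5, 139369650 to 139369745, minus strand, in 3110082I17Rik) had 321 CPM in replicate 1 and 342 CPM in replicate 2, or 332 ± 15.5 (SD, n = 2). Mir186 (ENSMUSG00000065431.1; chromosome 3, 157544279 to 157544349, plus strand, in Zranb2) had 146 and 118 CPM, or 132 ± 19.9, and was the lowest of the 6 by its mean. The libraries lay closer for Mir339 than for Mir186, with SDs of 4.66% and 15.0% of the mean.

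Mir384, reported for both App and Bace1, is intergenic (ENSMUSG00000065499.1; chromosome X, 105344282 to 105344369, minus strand) and had 217 and 230 CPM in replicates 1 and 2, or 224 ± 9.60 (SD, n = 2). Mir325, another miRNA gene annotated on chromosome X, lies 34713 bases away and had 98.9 and 143 CPM. Genes of the miR-30 family that share the miR-384-5p seed by the RefSeq table were Mir30a at 4466 CPM ± 134, Mir30e at 2410 ± 107, Mir30c-2 at 313 ± 78.8 and Mir30c-1 at 189 ± 50.8 (SD, n = 2 each). Further genes of that family were Mir30d at 7732 and 6318 CPM and Mir30b at 116 and 158 CPM in replicates 1 and 2. Their absence from the RefSeq matches does not mean that they lack the seed. By library, Mir30c-2 had 257 and 369 CPM and Mir30c-1 had 153 and 225 CPM in replicates 1 and 2. Mir384 was thus below Mir30d, Mir30a, Mir30e and Mir30c-2 in both libraries, and above Mir30c-1 and Mir30b in both. The counts do not separate the arms, so these are levels of hairpins and not of miR-384-5p. Each of the hairpins of Mir30a, Mir30e, Mir30c-2 and Mir30c-1 shares a stretch of 18 bases with another hairpin, so their counts are uncertain.

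By mean level the order was Mir328, Mir101b, Mir339, Mir384, Mir101a and Mir186. Mir328 was above Mir101b in both libraries (30.1-fold and 43.4-fold), and Mir339 was above Mir384 in both (1.48-fold and 1.49-fold). The other neighbours changed places between the libraries. Mir101b exceeded Mir339 in replicate 1 and lay under it in replicate 2. In replicate 1 Mir101a was above both Mir384 and Mir186, and in replicate 2 it was under both. The exact 95% intervals for counting error overlapped between Mir101a and Mir384 in replicate 1 and between Mir101a and Mir186 in replicate 2.

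**Figure D3:**
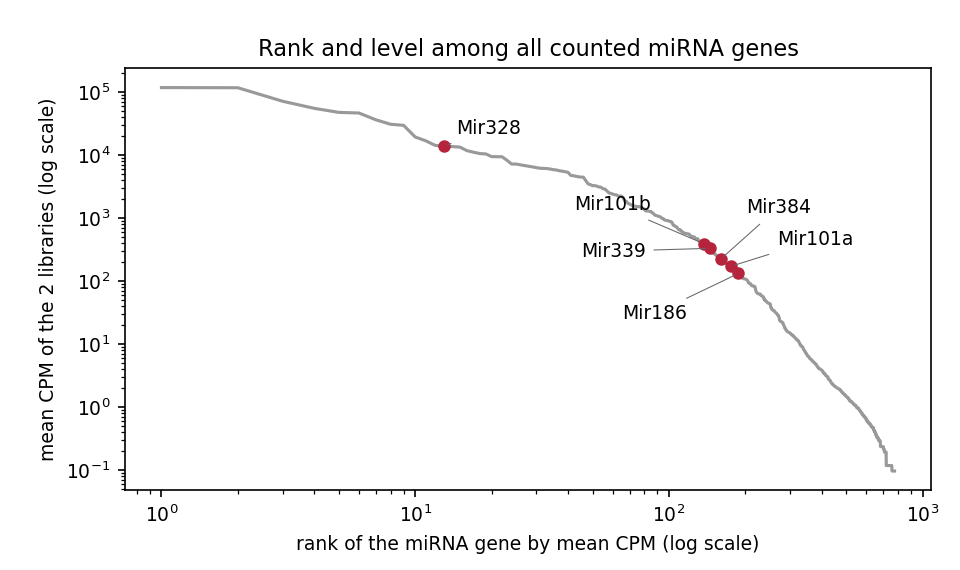
Mean CPM of the 2 libraries against rank for all miRNA genes with a count (grey line, both axes log), with the 6 genes as red points. By counts assigned to a gene, Mir328 ranks 13, and the other 5 lie between ranks 137 and 188.

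Replicate 1 was set against replicate 2 with a two-sided exact binomial test on every miRNA gene with 10 or more counts in the sum, scaled by TMM (trimmed mean of M-values), with Benjamini-Hochberg adjustment; an adjusted p under 0.05 was called a difference. The test holds counting error alone and compares these libraries, not conditions. Of the 6 genes, 4 differed, all higher in replicate 1, against a background of 58.8% of 546 tested genes called in either direction, 34.2% higher in replicate 1 and 24.5% higher in replicate 2. Among the 199 genes with 1000 or more counts in the sum, a level all 6 reach, 87.4% were called. The median log2 ratio was 0.29 for the 6 genes and 0.07 for all tested genes. The median size of the log2 ratio was 0.29 for the 6, 0.50 for all tested genes and 0.36 for the 199.

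The largest of the 6 ratios was that of Mir101a, from 990 counts in replicate 1 and 573 in replicate 2. It was 2.16-fold higher in replicate 1 (exact 95% interval 1.94 to 2.39, adjusted p = 8.25e-50, exact binomial test). Mir101b, with 2084 and 1526 counts, was 1.70-fold higher in replicate 1 (1.59 to 1.82, adjusted p = 1.95e-56, exact binomial test). The miR-101 genes moved the same way, and their summed level was 727 CPM in replicate 1 and 407 CPM in replicate 2. Mir328, with 62788 and 66301 counts, was 1.18-fold higher in replicate 1 (1.17 to 1.19, adjusted p = 1.83e-196, exact binomial test). Mir186, with 619 and 611 counts, was 1.26-fold higher (1.13 to 1.42, adjusted p = 9.95e-05, exact binomial test).

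Mir339, with 1355 and 1768 counts, had a log2 ratio of -0.06 (exact 95% interval -0.17 to 0.04, adjusted p = 0.306, exact binomial test). Mir384, with 916 and 1189 counts, had -0.06 (-0.18 to 0.07, adjusted p = 0.486, exact binomial test). With DESeq2 size factors as the scaling, Mir339 had a log2 ratio of -0.13 and passed the threshold (adjusted p = 0.0258, exact binomial test). With a biological coefficient of variation (BCV) of 0.1 in edgeR's exact test, where 28.8% of genes were called, only Mir101a and Mir101b of the 6 passed. The BCV of 0.481 was estimated over both libraries as 1 group, so it counts the difference under test as spread. Few calls can pass at that value by construction. It left 1.1% of genes called and none of the 6, and no conclusion is drawn from that.

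**Figure D4:**
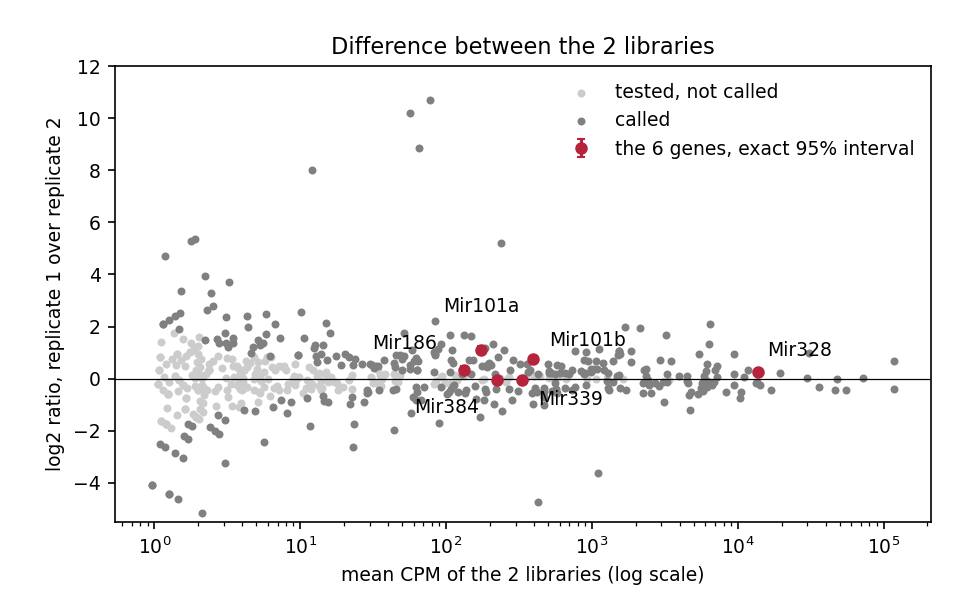
Log2 ratio of replicate 1 over replicate 2 against mean CPM (log axis) for the 546 tested genes, with called genes in dark grey, others in light grey and the 6 genes in red with exact 95% intervals, most of them smaller than the point. Mir101a (1.11) and Mir101b (0.77) have the largest ratios of the 6, and other genes spread farther.

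Sums over lists of cell type miRNAs were set beside these ratios, and single genes led several of them. The neuron list, with 7 of 10 genes detected and Mir124a-2 at 0 in replicate 1, took 7.18% of counts in replicate 1 and 4.68% in replicate 2. Within the neuron list, Mir132 (40577 and 21189 CPM), Mir128-1 (9000 and 3687 CPM) and Mir128-2 (2052 and 996 CPM) were higher in replicate 1. Mir138-1 (4244 and 4820 CPM) and Mir138-2 (2577 and 3206 CPM) were lower there. Mir137 (6008 and 5769 CPM) and Mir383 (7295 and 7140 CPM) lay closer between the libraries. The microglia list (3 of 4 detected, none at 0) took 0.487% and 0.216%, and the blood list (2 of 3 detected, none at 0) took 0.00724% and 0.0887%. Mir21a (3357 and 899 CPM) led the microglia sum while Mir155 had 173 and 181 CPM, and Mir451a (30.0 and 821 CPM) led the blood sum while Mir486 had 36.2 and 26.0 CPM. Their part in the differences of the 6 genes was not tested. In bulk tissue, fewer cells of a type and less RNA per cell cannot be told apart. The astrocyte list (3 of 3 detected) took 4.04% and 3.85% of counts in replicates 1 and 2, the oligodendrocyte list (2 of 3) 0.710% and 0.534%, the endothelium and mural list (3 of 3) 1.33% and 1.93% and the choroid plexus list (5 of 5) 0.0906% and 0.139%. Members of these lists also went both ways. Mir23a had 6783 and 9784 CPM in replicates 1 and 2, and Mir23b 20609 and 18187. Mir126a had 7756 and 13122 CPM, and Mir145a 235 and 169. Mir34c had 308 and 637 CPM, and Mir211 65.5 and 37.0.

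The 2 tested genes nearest to each of the 6, by Euclidean distance over log2(CPM + 1) in the 2 libraries, were Mir99a and Mir433 for Mir328, at distances of 0.25 and 0.30. Mir27a (258 and 115 CPM in replicates 1 and 2) lay 0.15 from Mir101a, and Mir218-2 lay 0.31 from it. Mir92-1 and Mir877 were nearest to Mir101b, Mir421 and Mir106b to Mir339, Mir669c and Mir873a to Mir384, and Mir210 and Mir3475 to Mir186. Likeness over 2 libraries describes level and little else, and 5 of these 12 hairpins share a stretch of 18 bases with another hairpin.

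A further 29 miRNA genes reported to target App or Bace1 were set beside the 6. Of these, 23 were detected, and together they took 2.99% of counts in replicate 1 and 2.88% in replicate 2, or 2.94% ± 0.0820 (SD, n = 2). No gene of the list had a mean above that of Mir328, 10 were above Mir101b and 12 below Mir186. Mir29a, which is reported for Bace1, was the most abundant at 13028 and 10511 CPM in replicates 1 and 2. Mir107, also reported for Bace1, followed at 2165 and 4082 CPM, and Mir34a at 2921 and 3268 CPM. Among 27 tested genes of the list, the exact binomial test called 13 in favour of replicate 1 and 8 in favour of replicate 2. Their median log2 ratio was 0.09, against 0.07 for all tested genes. Calls were common in these libraries, at 58.8% of all 546 tested genes (34.2% and 24.5% in favour of replicates 1 and 2). At 1000 or more counts in the sum, 87.4% of genes were called. Of the 29 hairpins, 12 share a stretch of 18 bases with another, Mir107 and the Mir124a and Mir9 genes among them, so their counts are uncertain.

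**Figure D5:**
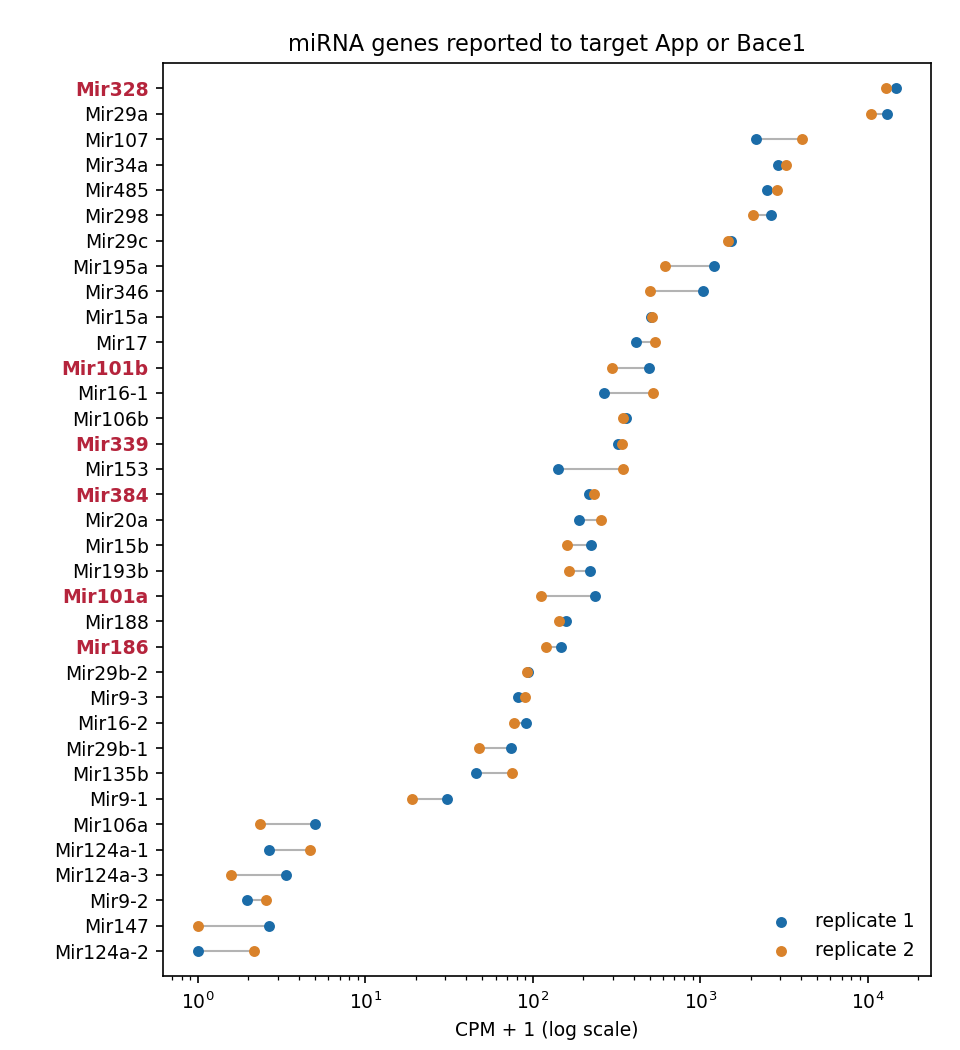
CPM + 1 (log axis) in replicate 1 (blue) and replicate 2 (orange) of the 6 genes (red names) and 29 further miRNA genes reported to target App or Bace1, ordered by mean CPM. Mir328 and Mir29a are the top pair in both libraries, and Mir147 and Mir124a-2 are at 0 in one library each.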

How the data were processed

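MicroRNA-seq was measured in 2 libraries of 1 group. The authors deposited raw read counts per miRNA gene, not normalized, on mm10 with GENCODE M21, per the record accompanying each file; aligner and counter were not given in the sources used here. Gene-strand counts were used, 4226300 in replicate 1 and 5162369 in replicate 2. The 4 rows that name no gene, 67.4% and 67.6% of the reads, stayed out. Symbols and coordinates came from GENCODE M21, and mature sequences from RefSeq. TMM scaling, the BCV of an intercept-only fit and exact tests used edgeR 4.0.16. DESeq2 1.42.0 gave alternative size factors, and binomial tests and intervals used scipy 1.17.1. edgeR's quasi-likelihood test needs residual degrees of freedom, which 1 library a side does not leave. Ratios have 0.5 counts added per library. The binomial test was run on simulated data with known fold changes and counting error alone. Those data hold no other spread between libraries, and their planted changes were larger than the ratios of Mir328, Mir101b, Mir186, Mir339 and Mir384. They do not show how the test behaves for such ratios in these libraries. The 6 genes and all lists were chosen with earlier results of these data known. Named genes were the 6, genes sharing a seed with them, the 3 most abundant of the literature list and the 2 nearest genes by level; Mir325, Mir101c, Mir30b, Mir30d and others named in passing were picked with their values in view. Alternatives covered strand, denominator, scaling, filter, pseudocount, test and each library left out.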

Additional observations from a re-analysis of the deposited data

Results flagged for a closer look

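Reads mapping to several places lie outside the gene counts and numbered 5244644 in replicate 1 and 6290303 in replicate 2. They are listed as a signal in data the comparisons do not use, above the limit of 3 counts that a count of 0 allows. A total over a library passes that limit in any case, so it says nothing of the 6 genes, and the number of miR-101 reads among them was not tested. No opposite-strand count was recorded for any of the 6 genes in either library.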

How the results depend on the processing

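With 1 group of 2 libraries, no ratio remains when a library is left out. No paired analysis was possible because the design holds 1 group. The share of the 6 genes was 0.490% with all reads in the table as denominator and 3.54% without the 10 most abundant genes, and the share of the further 29 genes was 3.15% with the unstranded column; these denominators differ by construction. Leaving out a library gave 1.39% to 1.63% for the 6 genes. Called genes numbered 157 (edgeR's exact test, BCV 0.1) and 6 (estimated BCV) in place of 321. At BCV 0.1 the log2 ratios of Mir328 (0.24, adjusted p = 0.406) and Mir186 (0.34, adjusted p = 0.247) lost their calls by edgeR's exact test. At the estimated BCV so did those of Mir328 (0.24), Mir101b (0.77), Mir101a (1.11) and Mir186 (0.34). That BCV counts the difference between the libraries as spread, so the loss at that setting was built in. Mir339 gained a call with DESeq2 size factors (-0.13). No ratio of the 6 genes reversed under the alternatives run. With bases 2 to 7, an alternative chosen after seeing the data, 10 pairs had a match in place of 5. A shorter motif can only match as often or more often. Depth limits Mir186 (619 and 611 counts in replicates 1 and 2) and, in replicate 2, Mir101a (573 counts).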
